A study of Mus musculus with 12 samples.

Results

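Ctla2a, Cst3 and 8 cathepsin genes (Ctsa, Ctsb, Ctsc, Ctsd, Ctsh, Ctsl, Ctss and Ctsz) were followed across 4 lung adenocarcinoma cell lines of the mouse. Every probe set that the array annotation gives to one of these symbols alone was taken, which made 21 of 45037 probe sets and 10 of 18193 genes, and 6 of the 10 genes had more than 1 probe set. KC1, KC2 and KC3 are labelled highly metastatic and KC4 poorly metastatic. All lines carry the genotype K-rasLA1/+; Cdkn1a-/-, that is, an activated K-ras allele and loss of both copies of the p21 gene, with no line that keeps p21. The labels give 6 primary tumors from 4 mice as the source, without saying which line came from which animal, and growth in RPMI medium with 10% FBS. Each line was measured on 3 arrays, labelled biological replicates, in 1 colour on Affymetrix arrays. A line is a single tumour-derived culture, and KC4 is the only one of its class, so metastatic class and line cannot be told apart for KC4.

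Cathepsins are proteases of the lysosome, the acidic compartment in which cells degrade protein, and some are also secreted and cut matrix proteins around tumour cells. Most are cysteine proteases, made as inactive precursors with a propeptide that blocks the active site. Cystatins such as cystatin C, the product of Cst3, bind the mature cysteine proteases. Ctla2a, known from mouse T cells, encodes a small protein that resembles the propeptide of cathepsin L and inhibits cathepsin L-like enzymes.

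Values are scaled linear signals, or log2 signals with everything under 16 set to 16, so that 4.00 is the lowest possible log2 value. The median signal per array ran from 94.5 to 128, and 15.3% to 20.0% of probe sets on an array lay at or under the floor. Spearman correlations across probe sets were 0.965 to 0.970 between arrays of a line and 0.930 to 0.951 between arrays of different lines. The Cdkn1a probe set 1424638_at averaged 7797 (KC1), 5898 (KC2) and 6721 (KC3), against 4355 (KC4), and a second one lay under the floor on average in every line. Whether either lies inside the deleted stretch is unknown, so neither checks the genotype. One technical value set KC4 apart, since the mean signal of the 5-prime 18S control probe set, for ribosomal RNA, was 490 over the other lines' means against 3305 for KC4. It moves with every KC4 difference below, and its part in them was not tested.

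A probe set was called when limma's adjusted p was under 0.05 and the log2 difference at least 1 in size, that is, 2-fold. Between the highly metastatic lines and KC4, 1 of the 21 probe sets was called, that of Ctla2a, against 4.59% of all probe sets. The median difference of the 21 was 0.11 on the log2 scale and that of all probe sets -0.00. The share of called probe sets was thus near that of the array. More of the 21 were called between pairs of lines. Against KC4, 3 of 21 were called in KC1 (background 4.75%), 5 in KC2 (7.99%) and 4 in KC3 (6.70%). These comparisons share the KC4 arrays. Within the highly metastatic class, 5 were called between KC1 and KC2 (4.04%), 3 between KC1 and KC3 (7.00%) and 7 between KC2 and KC3 (9.42%). In all, 7 of the 10 genes had a probe set called in at least 1 of the 6 pairs of lines, against 26.6% of all genes, and Ctsb, Ctsl and Ctsd had none. Probe sets of a gene share its transcripts, so these counts are not over independent units, and a gene with more probe sets has more chances of a call. The genes were also chosen with earlier results of these data known. A share above the background can come from that choice, so these counts are descriptions only.

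**Figure D1:**
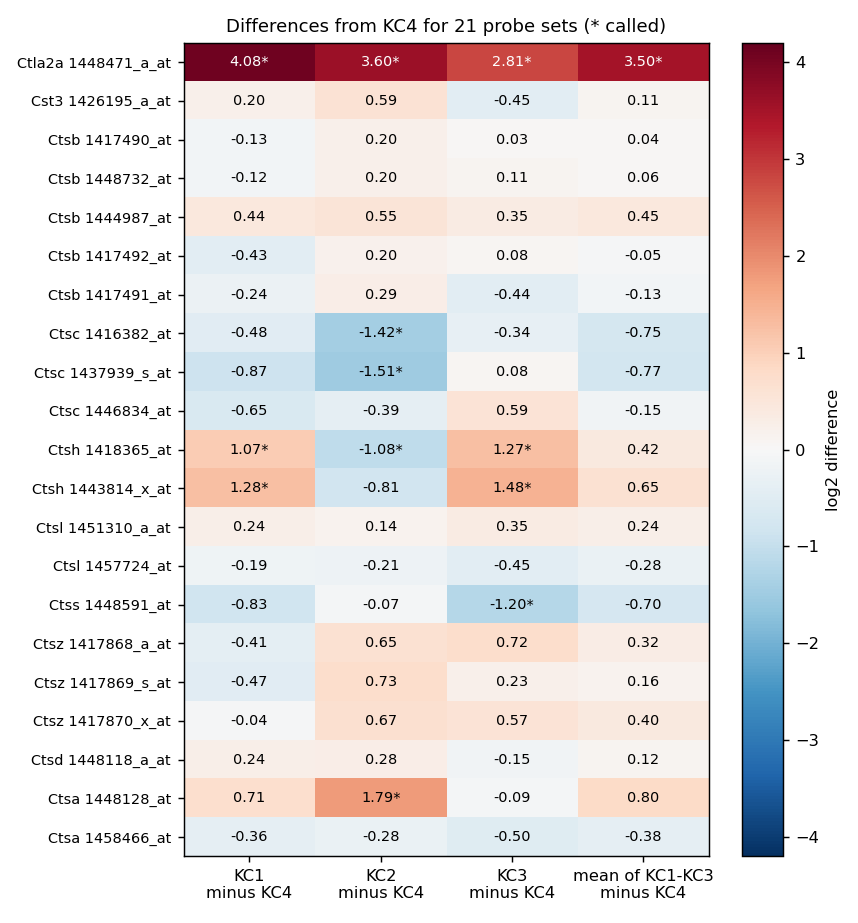
Log2 differences from KC4 (colour and printed number) for the 21 probe sets (rows) for KC1, KC2, KC3 and their mean (columns); an asterisk marks a called probe set. Ctla2a is the row called in every column, Ctsh turns from 1.07 and 1.27 in KC1 and KC3 to -1.08 in KC2, and both bright Ctsb probe sets stay between -0.13 and 0.20.

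Ctla2a, the propeptide-like inhibitor, showed the widest range of the 10 genes. Its signal was 13359, 15083 and 15307 in KC1, 10953, 9588 and 11028 in KC2, and 6094, 5051 and 7224 in KC3, against 839, 964 and 796 in KC4. Every array of the highly metastatic lines lay above every KC4 array, as for 5.21% of all probe sets. This gap was known from an earlier look at the same arrays, so its call and its size are descriptions and no support for it. The log2 difference was 3.50 (SE 0.108, 95% interval 3.25 to 3.74), or 11.3-fold. The line differences from KC4 were 4.08 in KC1, 3.60 in KC2 and 2.81 in KC3 (SE 0.132 each). Inside the highly metastatic class the arrays did not overlap between lines either, with KC1 highest and KC3 lowest. The share of all probe sets that separate in this way between single lines was not computed, for Ctla2a or the genes below. KC1 exceeded KC3 by 1.26 (limma adjusted p = 0.000122), while the steps of 0.47 between KC1 and KC2 and 0.79 between KC2 and KC3 stayed under the minimum for a call (limma adjusted p = 0.0377 and 0.00156).

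Ctla2b, the closest relative of Ctla2a, is nearly its copy, which is why their start regions are shown together. In the RefSeq gene order for GRCm38.p6 the 2 genes lie next to each other but for Tpbpb. The windows run from 250 bases before to 50 after the start site, 5′ to 3′, both on the minus strand, Ctla2a at chr13:60936576-60936875 and Ctla2b at chr13:60897398-60897697. Capitals mark the motif TGANTCA, which reads the same on both strands and is known as a binding sequence of AP-1 factors.
Ctla2a: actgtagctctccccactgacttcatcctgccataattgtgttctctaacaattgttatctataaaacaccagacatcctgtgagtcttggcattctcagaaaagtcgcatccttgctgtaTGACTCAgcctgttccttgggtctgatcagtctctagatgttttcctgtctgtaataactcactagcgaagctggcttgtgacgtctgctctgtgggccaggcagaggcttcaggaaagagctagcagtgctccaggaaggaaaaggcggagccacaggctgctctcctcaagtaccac
Ctla2b: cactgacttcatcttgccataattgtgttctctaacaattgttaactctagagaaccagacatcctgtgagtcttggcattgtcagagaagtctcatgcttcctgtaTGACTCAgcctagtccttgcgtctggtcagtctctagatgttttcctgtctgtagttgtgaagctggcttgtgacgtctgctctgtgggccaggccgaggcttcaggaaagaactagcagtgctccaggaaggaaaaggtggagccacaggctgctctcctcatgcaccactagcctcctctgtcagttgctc
Over 278 paired bases the windows were 91.7% identical. The Ctla2a window is 1 of 2 overlapping ones listed for that gene. Each holds TGANTCA once, 129 bases before the start in Ctla2a and 143 in Ctla2b. Of the 32851 RefSeq windows of this length, 7.81% hold it at least 1 time. A match is a run of letters and no evidence of binding.

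The Ctla2b probe set, 1452352_at, followed the same order of lines. Its signal was 7228, 7448 and 7321 in KC1, 5484, 5415 and 5895 in KC2, and 4562, 4379 and 4438 in KC3, against 743, 781 and 718 in KC4. The log2 difference between the classes was 2.93 (SE 0.0337), with the arrays of the highly metastatic lines all above those of KC4. A further probe set, 1416811_s_at, is annotated to both genes and lies outside the 21. It gave 15367 to 15923 in KC1, 10644 to 11332 in KC2 and 6825 to 7583 in KC3, against 641 to 767 in KC4, a log2 difference of 3.93. Transcripts of such close copies can bind each other's probes, so the share of each gene in the signal is uncertain.

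**Figure D2:**
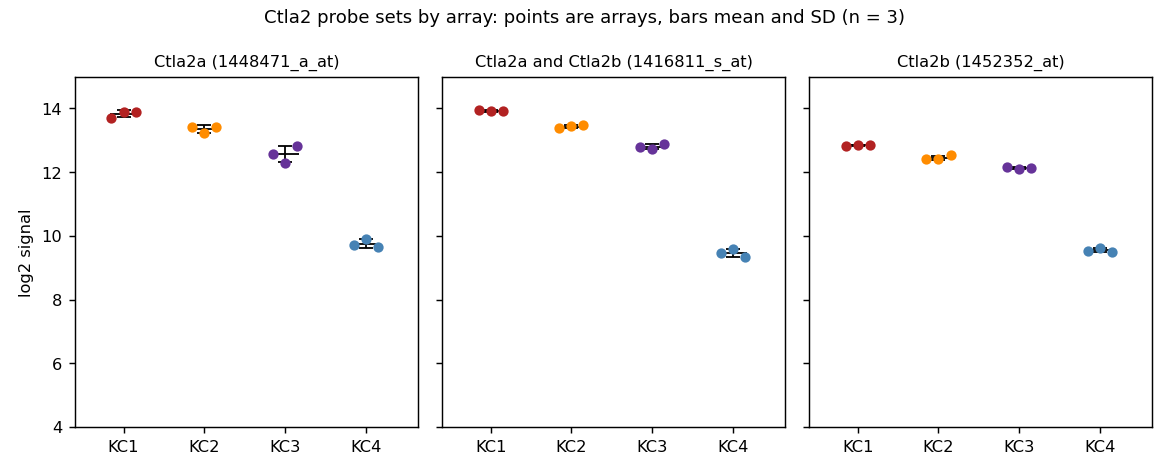
Log2 signal (vertical axis) by line (horizontal axis) for the probe sets of Ctla2a, of both genes and of Ctla2b; points are arrays and bars the mean and SD of 3. In each panel the order is KC1, KC2, KC3, KC4, with KC4 means of 9.75, 9.45 and 9.55.

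The 8 rodent cathepsin genes that follow in the RefSeq order after Tpbpa, known from the placenta, did not share this pattern. Of Ctsj, Ctsq, Ctsr, Cts6, Cts8, Cts7, Ctsm and Cts3, 0 were called between the classes. With 5.36% of all genes called, 0 of 8 is near that share. Line means of Cts8 on its brighter probe set lay at 6.45, 6.46 and 6.26 in KC1, KC2 and KC3 and 6.45 in KC4. Its other probe set, 1420680_at, was near the floor, at 4.00, 4.05 and 4.00 against 4.40, so whether Cts8 was detected is uncertain. Line means of the other 7 genes lay near the floor, between 4.00 and 4.49 in all lines, so the lack of a call says little about them. Ctsq was at the floor on every array. With Ctla2b, 1 of the 9 listed genes was thus called, against 5.36% of genes when each gene is read by its probe set of highest mean.

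The other inhibitor, Cst3, differed within the highly metastatic class. Its signal was 2550, 2202 and 2082 in KC1, 2708, 3464 and 2819 in KC2, and 1566, 1494 and 1288 in KC3, against 2271, 1827 and 1862 in KC4. KC3 lay below every other line with no overlap, while KC1 overlapped KC4. The class difference was 0.11 (95% interval -0.13 to 0.36, limma adjusted p = 0.561). KC2 exceeded KC3 by 1.04 (SE 0.132, limma adjusted p = 0.000285), a call that was lost without KC2 replicate 2 (0.94), without KC3 replicate 3 (0.96) and with each array centred on its median (0.80). Ctla2a and Cst3 thus both had their lowest highly metastatic values in KC3, but only Ctla2a was lower still in KC4.

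Of 13 other measured cystatins and related inhibitors, 0 were called between the classes, against 5.36% of all genes, a share near which 0 of 13 lies. Cstb, the intracellular cystatin B, was bright throughout, at 13.44, 13.18 and 13.26 in KC1, KC2 and KC3 and 13.17 in KC4. For 10 of the 13 the mean log2 signal was under 6. Among these, in pairs named after their values were seen, Cst6, which encodes cystatin M, had means of 5.96, 6.07 and 4.16 in KC1, KC2 and KC3 against 5.62 in KC4. It was lower in KC3 than in KC4 (-1.46, limma adjusted p = 0.00228) and was called against KC1 and KC2 as well. Csta1 was called for KC2 minus KC3 (1.54, limma adjusted p = 0.0151), and 0 of the other 11 were called in any pair. The KC3 signals were 13.8, 6.55 and 22.5 for Cst6 and 8.18, 11.4 and 27.4 for Csta1, mostly under the floor. These differences from KC3 are thus lower bounds in size, and their adjusted p can be too small. Among all genes 26.6% were called in at least 1 pair.

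**Figure D3:**
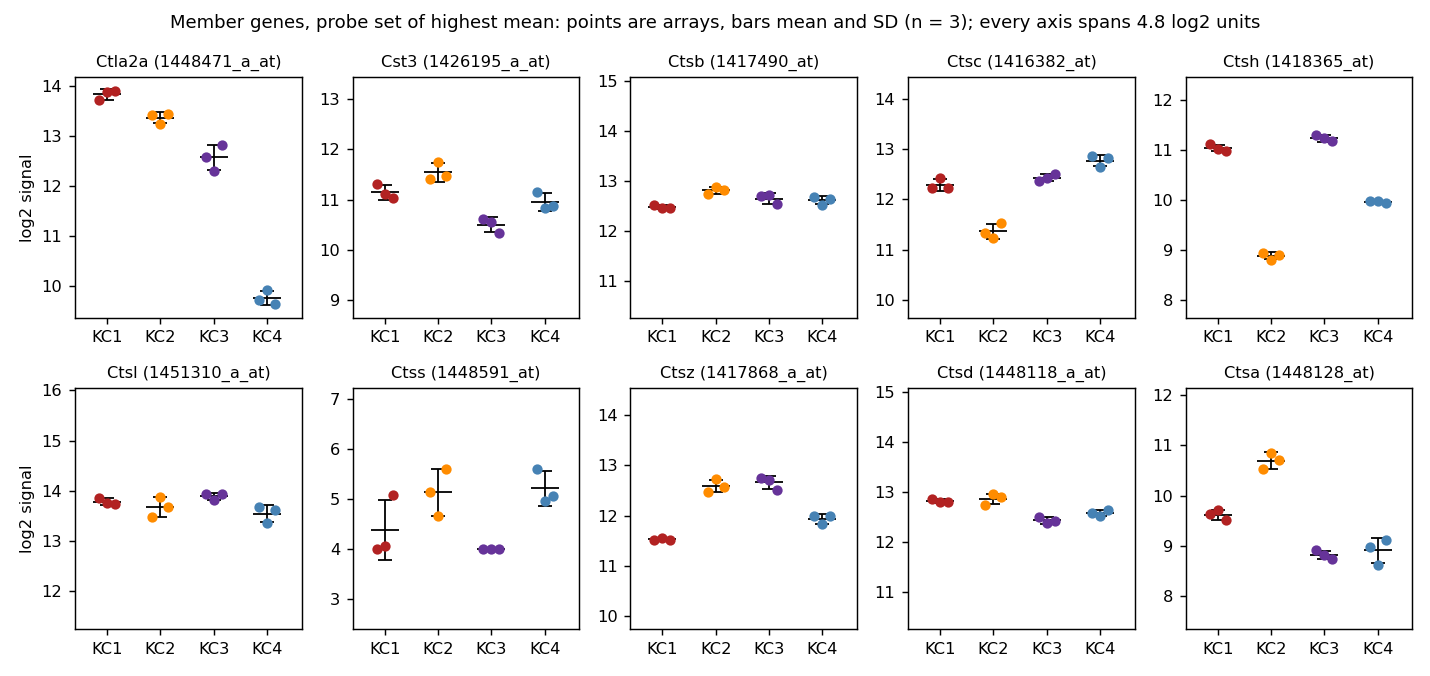
Log2 signal by line for the 10 genes, each by its probe set of highest mean; points are arrays, bars the mean and SD of 3, and every vertical axis spans 4.8 log2 units around its own centre. Ctla2a runs from 13.83 in KC1 to 9.75 in KC4, Ctsh and Ctsc are lowest in KC2, Ctsa is highest in KC2, and Ctsb, Ctsl and Ctsd are nearly level.

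Among the cysteine proteases, Ctsh differed most. Cathepsin H is an aminopeptidase that takes part in processing surfactant proteins in alveolar type II cells. On 1418365_at its signal was 2224, 2074 and 2035 in KC1, 492, 449 and 483 in KC2, and 2532, 2414 and 2310 in KC3, against 1010, 1008 and 990 in KC4. KC1 and KC3 lay above KC4 and KC2 below it, with no overlap. The log2 differences from KC4 were 1.07 in KC1, -1.08 in KC2 and 1.27 in KC3 (SE 0.0491 each), with limma adjusted p of 1.39e-06, 6.74e-07 and 3.21e-07. KC2 was lower than each other line and differed from KC3 by -2.35, or 5.10-fold, the widest range among the cathepsins. These opposite moves left a class difference of 0.42 (95% interval 0.33 to 0.51), under the minimum for a call. Without KC2 it was 1.17 and called. The second probe set, 1443814_x_at, gave 1.28, -0.81 and 1.48 for KC1, KC2 and KC3 minus KC4, of which the KC2 difference missed the minimum size. Its x_at ending marks probes that can pick up related transcripts.

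Ctsc encodes dipeptidyl peptidase I, which activates the granule proteases of immune cells. On 1416382_at it was lower in KC2, with signals of 4770, 5517 and 4803 in KC1, 2569, 2397 and 2954 in KC2, and 5315, 5500 and 5856 in KC3, against 7426, 6417 and 7246 in KC4. All 9 arrays of the highly metastatic lines lay below all of KC4, as for 5.67% of all probe sets, and those of KC2 below all others. KC2 fell below KC4 by 1.42 and below KC3 by 1.08 on the log2 scale (limma adjusted p = 6.24e-06 and 2.80e-05). The differences from KC4 were -0.48 in KC1 and -0.34 in KC3, and the class difference was -0.75 (95% interval -0.92 to -0.57), all under the minimum. A dimmer probe set, 1437939_s_at, gave -1.51 for KC2 minus KC4 and -1.59 for KC2 minus KC3, but KC3 did not lie below KC4 on it (0.08). The dimmest, 1446834_at, was called for KC1 minus KC3 alone (-1.23, limma adjusted p = 0.024), and lost that call in 4 of 18 alternative settings, without KC1 replicate 1 or 2 and without KC3 replicate 1 or 3 (limma adjusted p up to 0.0847). For the same pair 1437939_s_at gave -0.95, uncalled but called in 4 of 19 alternative settings, and the brightest probe set gave -0.15.

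Ctsz encodes cathepsin Z, a carboxypeptidase. Its brightest probe set, 1417868_a_at, had signals of 2934, 3022 and 2938 in KC1, 5708, 6747 and 6109 in KC2, and 6913, 6744 and 5848 in KC3, against 4092, 3627 and 4076 in KC4. KC1 was lowest, KC4 next, and KC2 and KC3 overlapped above both. KC1 was lower than KC2 by a log2 difference of -1.06 and than KC3 by -1.13 (limma adjusted p = 3.88e-05 and 1.42e-05). The KC1 minus KC2 difference was -0.99 without KC2 replicate 2, just short of a call. The s_at probe set called the KC1 minus KC2 difference as well (-1.20), and the x_at one gave -0.71. For KC1 minus KC3 they gave -0.70 and -0.61, both under the minimum. Against KC4 the 3 probe sets ranged from -0.47 to -0.04 in KC1, 0.65 to 0.73 in KC2 and 0.23 to 0.72 in KC3, and 0 of these were called.

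Ctsb and Ctsl, the cysteine endopeptidases most often studied in tumour invasion, were bright and nearly level. Ctsb on 1417490_at gave 5891, 5641 and 5629 in KC1, 6809, 7528 and 7243 in KC2, and 6631, 6700 and 5901 in KC3, against 6540, 5862 and 6370 in KC4. The class difference was 0.04 (95% interval -0.08 to 0.15). The second bright probe set, 1448732_at, gave 0.06 (95% interval -0.12 to 0.25). The largest line difference on either was KC1 minus KC2 on 1417490_at, at -0.33 or 1.26-fold. Of the 3 dim Ctsb probe sets, 0 were called in any pair. Ctsl on 1451310_a_at gave 14817, 13838 and 13682 in KC1, 11434, 15085 and 13059 in KC2, and 15594, 14352 and 15564 in KC3, against 13004, 10454 and 12463 in KC4. Its arrays overlapped between KC2 and KC4, and the class difference was 0.24 (95% interval 0.04 to 0.45, limma adjusted p = 0.0903). Its other probe set, 1457724_at, was dim, with line means from 5.31 to 5.76.

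Ctss, cathepsin S, which trims the invariant chain of MHC class II in antigen-presenting cells, was near the floor. Its signal was 3.76, 16.6 and 33.6 in KC1, 35.2, 25.3 and 48.3 in KC2, and 10.2, 7.14 and 7.14 in KC3, against 48.5, 31.1 and 33.3 in KC4. KC3 lay under the floor on all 3 arrays. It was called lower than KC4 by a log2 difference of -1.20 (at least 2.30-fold, limma adjusted p = 0.0265), and KC2 higher than KC3 by 1.13 (limma adjusted p = 0.0294). Both differences are lower bounds in size. Arrays set to the floor add no spread to the fit, so both adjusted p can be too small. Each of these calls was lost in 6 of 19 settings, among them a floor of 64, at which all arrays are level. The KC3 minus KC4 call was lost without any single KC3 array and without KC4 replicate 1 or 3, and the KC2 minus KC3 call without any single KC3 array and without KC2 replicate 1 or 3. Without KC1 replicate 3 the KC1 minus KC4 difference of -0.83 became -1.18 and was called.

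The aspartic protease gene Ctsd did not differ by the minimum size in any pair. Its signal was 7478, 7109 and 7089 in KC1, 6861, 7913 and 7611 in KC2, and 5819, 5336 and 5446 in KC3, against 6142, 5847 and 6406 in KC4. KC1 and KC2 lay above KC3 and KC4, and the range of line means was 1.35-fold. The class difference was 0.12 (95% interval 0.01 to 0.24, limma adjusted p = 0.114).

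Ctsa, the serine carboxypeptidase that also protects lysosomal beta-galactosidase and neuraminidase, was highest in KC2. On 1448128_at it gave 791, 833 and 732 in KC1, 1472, 1853 and 1669 in KC2, and 480, 447 and 428 in KC3, against 505, 393 and 555 in KC4. KC2 lay above every other array, KC1 above KC3 and KC4, and the arrays of KC3 fell within the range of KC4. KC2 exceeded KC4 by 1.79 and KC3 by 1.88 (limma adjusted p = 1.15e-05 and 7.17e-06). KC1 minus KC2 was -1.08 (limma adjusted p = 0.000489), and -0.999 and uncalled without KC2 replicate 2. The class difference was 0.80 (95% interval 0.56 to 1.05), uncalled, and 1.25 and called without KC3. The dim probe set 1458466_at did not follow, at 7.36, 7.44 and 7.22 in KC1, KC2 and KC3 and 7.72 in KC4.

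By the rule of calls against each other line in one direction, Ctsh (1418365_at) was lower and Ctsa (1448128_at) higher in KC2, and Ctla2a lower in KC4. In KC2 that is 1 of 21 probe sets lower (background 0.826%) and 1 higher (0.677%), in KC4 1 lower (0.713%), and 0 in KC1 (0.706%) and KC3 (1.90%).

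Start regions of 8 of the 10 genes were in the RefSeq promoter table. Lysosomal genes are known to carry the motif CACGTG, read by the TFEB family of transcription factors and by other E-box factors. It reads the same on both strands. It was found in 3 of 10 windows of these genes, once in Ctsl and 2 times each in Ctsd and Ctsa, and in 7.15% of all windows. Those with 2 matches are shown, 5′ to 3′, with the motif in capitals (GRCm38.p6): Ctsd at chr7:142387778-142388077 on the minus strand and Ctsa at chr2:164833523-164833822 on the plus strand.
Ctsd: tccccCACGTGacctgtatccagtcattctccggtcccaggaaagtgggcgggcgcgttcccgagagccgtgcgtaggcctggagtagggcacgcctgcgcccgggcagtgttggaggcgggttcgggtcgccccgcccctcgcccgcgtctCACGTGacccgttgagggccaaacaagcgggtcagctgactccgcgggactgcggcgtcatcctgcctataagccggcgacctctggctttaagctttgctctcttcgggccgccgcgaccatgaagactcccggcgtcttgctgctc
Ctsa: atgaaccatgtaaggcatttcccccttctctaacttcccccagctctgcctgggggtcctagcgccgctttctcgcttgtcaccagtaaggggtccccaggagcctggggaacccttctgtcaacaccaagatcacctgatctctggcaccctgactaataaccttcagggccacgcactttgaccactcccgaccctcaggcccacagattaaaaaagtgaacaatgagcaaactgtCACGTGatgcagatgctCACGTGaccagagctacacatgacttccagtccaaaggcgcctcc
The matches began 245 and 98 bases before the start in Ctsd, and 12 before and 5 after it in Ctsa. The Ctsa window is 1 of 2 listed for that gene, and the other held no match. Between line means Ctsa ranged 3.67-fold, Ctsd 1.35-fold and Ctsl, with its 1 match, 1.27-fold. Any relation of the motif to expression was not tested.

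Few of the wider lysosomal genes were called between the classes, read by the probe set of highest mean, where 5.36% of all genes were called. Among 5 other cysteine cathepsins and legumain 0 were called, with Ctso at 0.59. Ctsw, at -1.17 (limma adjusted p = 0.0505), had means of 6.11, 4.40 and 6.07 in KC1, KC2 and KC3 against 6.70 in KC4. It was called lower in KC2 than in each other line. Of 4 other aspartic and serine cathepsins and Tpp1, 0 were called, although Ctse was lower in KC1 than in KC4 (-1.51, limma adjusted p = 2.56e-07), a pair named after its values were seen. Its dim probe set 1427797_s_at went the other way, at 7.49 in KC1 against 5.67 in KC4. Of 30 lysosomal hydrolases and their activators, 1 was called, lower, with a list median of -0.13. Of 23 lysosomal membrane and proton pump genes 0 were called (median -0.14), and of 10 sorting receptors and TFEB family genes 0 (median 0.19). These shares are near that of all genes or rest on few genes. Differences under the minimum size that passed the adjusted p included Npc1 at -0.94 and Atp6v0d1, a proton pump subunit, at -0.50 (limma adjusted p = 0.0244 and 9.38e-06). A second Scarb2 probe set, 1460235_at, was called lower (-1.56, limma adjusted p = 1.52e-06), while the brightest gave -0.68. Over all 18193 genes the median was -0.00.

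The called hydrolase was Hexa, the alpha subunit of beta-hexosaminidase, which degrades gangliosides in the lysosome. Its signal was 661, 720 and 712 in KC1, 428, 392 and 355 in KC2, and 24.4, 25.1 and 17.9 in KC3, against 1188, 1228 and 1283 in KC4. The 4 lines did not overlap, and KC3 lay close to the floor. The class difference was -2.76 (SE 0.101, limma adjusted p = 2.57e-07) and that of KC3 minus KC4 -5.79. The next largest difference in size on the list was that of Gm2a, the activator protein of the same enzyme, at -0.87 on its brightest probe set, 1448241_at, under the minimum. That probe set was called lower in KC1 than in KC4. It was the only gene of the list called lower in that pair, so Hexa was not called for KC1 minus KC4. Another Gm2a probe set, 1442203_at, was called lower. It lay under the floor on every array of the highly metastatic lines, against signals of 124, 112 and 45.7 in KC4. Its difference of -2.42 is thus a lower bound in size (at least 5.36-fold, limma adjusted p = 0.000131). Arrays set to the floor add no spread to the fit, while the KC4 arrays differed widely, so this adjusted p can be too small. The remaining Gm2a probe set, 1416188_at, gave -0.55 and was not called.

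**Figure D4:**
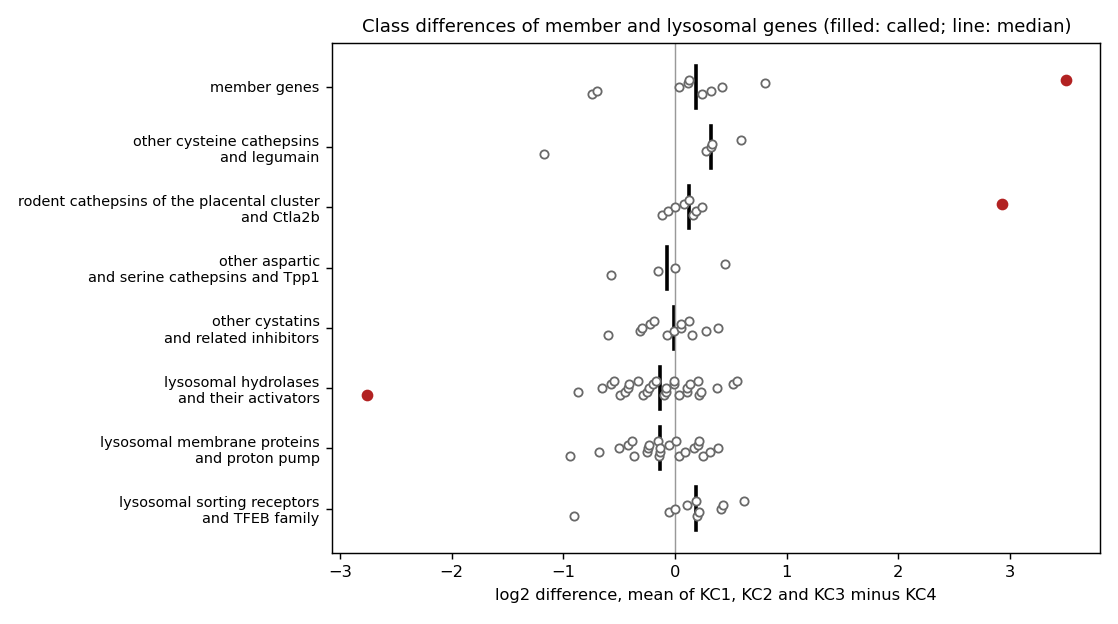
Log2 difference between the mean of KC1, KC2 and KC3 and KC4 (horizontal axis) for the 10 genes and 7 lists of lysosomal genes (rows), 1 point per gene; filled points are called and vertical lines are medians. The filled points are Ctla2a (3.50), Ctla2b (2.93) and Hexa (-2.76).

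Among all genes, those whose centred profile over the 12 arrays lay closest to Ctla2a were Plod2 (root mean square difference 0.31 on the log2 scale), Ctla2b (0.35), Igfbp4 (0.39) and Syde2 (0.40). Plod2, a lysyl hydroxylase gene, had means of 11.81, 11.88 and 10.37 in KC1, KC2 and KC3 against 7.94 in KC4. Igfbp4, which encodes a binding protein for insulin-like growth factors, had 13.23, 13.72 and 12.65 against 9.84. Ctsa, the cathepsin with the largest class difference, lay closest to Oip5os1 (0.18), Plat (0.19), Cep19 (0.21) and Rnf167 (0.21). Plat, the gene of tissue plasminogen activator, had 10.58, 11.38 and 9.75 in KC1, KC2 and KC3 against 9.72 in KC4. The 12 arrays are 4 lines of 3, so many genes can share such a profile.

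Since macrophages and T cells are known for cathepsins and Ctla2a, markers of other cells were read as well. In bulk RNA, fewer cells of a type and less RNA per cell cannot be told apart. Of 12 macrophage markers 0 were called between the classes, C1qa was at the floor on all arrays, and the summed signal was 2628 to 3216 in KC1, 2642 to 2748 in KC2 and 2088 to 2352 in KC3, against 2496 to 2608 in KC4. Among them Mrc1 was called higher in KC1 than in KC4 (1.39). Of 8 T and NK cell markers 0 were called, with sums of 445 to 561, 583 to 625 and 418 to 657 against 488 to 603. Cd3d, a chain of the T cell receptor complex, had means of 4.28, 4.00 and 4.05 against 4.00. Of 8 fibroblast and 6 endothelial markers 0 were called, with Pdgfrb and Tie1 at the floor on all arrays. Among all genes 5.36% were called between the classes, so 0 in lists this short is near that share. The mean log2 signal was under 6 for 4 of 12 macrophage and 6 of 8 T and NK cell markers. It was under 6 for 6 of 8 fibroblast and 4 of 6 endothelial markers as well. The rest of these markers lay at 6 or more. The epithelial markers were bright, from 12.63 for Epcam in KC4 to 14.53 for Krt18 in KC3, and 0 of 6 were called between the classes. Epcam was called higher in KC2 than in KC4 (1.10, limma adjusted p = 6.53e-06) and gave 0.97 in KC1 and 0.60 in KC3. The part of such cells in the differences was not tested.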

How the data were processed

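Total RNA was hybridised to 12 one-colour Affymetrix arrays, 3 per line. The deposited table holds 1 linear intensity per probe set and array; from the values, the authors scaled every array to one target, since the mean trimmed by 2% at each end was 500.002 to 500.003 on all. Software and background correction are not given in the sources used here. Of 45101 probe sets, 64 controls were left out. Signals under 16 were set to 16 and log2 was taken. Gene names came from the platform annotation, where 34945 probe sets had 1 symbol, 932 several and 9160 were not listed. limma 3.58.1 in R 4.3.3 was fitted with 1 coefficient per line over all 45037 probe sets, with Benjamini-Hochberg adjustment over them, and was tested on simulated data. The contrasts were the average of the 3 highly metastatic lines minus KC4, and the 6 pairs of lines. SE and 95% intervals come from that fit and cover the spread between arrays of a line only. For lists, each gene was read by its probe set of highest mean.

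The genes, the lists and the rule for named genes were chosen with earlier results of these data known. The rule names every probe set of the 10 genes, up to 4 called genes of each list, and the 4 genes closest to Ctla2a and to the cathepsin with the largest class difference. Alternatives were 1 probe set per gene, a block for the replicate number, dropping single arrays or single highly metastatic lines, quantile normalization, median centring, a floor of 64, a pseudocount of 16, leaving out the dimmer 50%, another prior and the line as a random block. The number of arrays limits the precision. Promoter windows are those of RefSeq for GRCm38.p6. Motifs were searched with Python 3.11.15 and windows aligned with Biopython 1.88; figures were drawn with matplotlib 3.10.9.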

Additional observations from a re-analysis of the deposited data

How the results depend on the processing

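The Ctla2a difference between the classes, given as a description, ranged over 24 alternatives from 3.21 (without the line KC1) to 3.84 (without the line KC3). The count of called probe sets between the classes was 1 in the fit reported, 4 without the line KC2 and 3 without the line KC3. Leaving out 1 array at a time gave counts of 1 to 1 between the classes, 3 to 4 for KC1 minus KC4, 5 to 5 for KC2 minus KC4, 3 to 4 for KC3 minus KC4, 3 to 6 for KC1 minus KC2, 2 to 4 for KC1 minus KC3 and 5 to 7 for KC2 minus KC3. The 3 for KC1 minus KC2 came without KC2 replicate 2, and 1 probe set per gene, which leaves 10 in place of 21, also gave 3. Median centring and quantile normalization turned the direction of 0 called differences. Centring moved KC2 minus KC3 by -0.24, KC1 minus KC3 by -0.21 and KC3 minus KC4 by 0.18 on the log2 scale. The first of these shifts turned both bright Ctsb probe sets to -0.07 and -0.14 there. Over all probe sets, calls between the classes numbered 2067, against 508 with the line as a random block and, with fewer probe sets tested, 1257 without the dimmer 50% and 991 with 1 per gene. The labels do not say whether a replicate number marks anything shared. Deviations of same-numbered arrays correlated at -0.12 to 0.09 over 18 pairs, and with the replicate block the count between the classes was 1. Exact permutation of 3 lines against 1 cannot give a p under 0.25. Depth on an array is its signal over background: Ctss, the placental cathepsins other than the brighter Cts8 probe set and most cystatins lie near the floor, where differences are bounds.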
